A study of Rattus norvegicus with 12 samples.

Results

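Gene expression in the whole cervix was compared between rats on day 21 after breeding (D21) and nonpregnant rats (NP). The comparison used 6 of the 12 arrays of the study: D21 rats 5, 6 and 7 and NP rats 8, 9 and 10, chosen by their sample titles, with 1 rat on each array. All were adult female Sprague Dawley rats. The NP rats were in proestrus by vaginal smear, and D21 is usually the day before birth. Every rat was perfused with warm saline, and the cervix was trimmed of vaginal folds, fat and uterine horns, minced and dispersed with collagenase B. The filtered cells of these 6 rats were frozen with no antibody or bead step, so each array holds RNA of all dispersed cell types together. The other 6 rats, 3 D21 and 3 NP, gave cervix cells from which macrophages (Mφs) were removed with the ED1 antibody and magnetic beads, and they are used only at the end. The question was which genes and classes of genes differ in the cervix just before birth.

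The cervix is a collagen-rich connective tissue with smooth muscle, vessels and resident immune cells, lined on the uterine side by a mucus-secreting columnar epithelium and on the vaginal side by a stratified squamous epithelium. Near term, collagen becomes less tightly packed, hyaluronan and water content change, the epithelium grows and secretes mucus that seals the canal, and leukocytes enter the stroma. Progesterone, estrogen, relaxin and prostaglandins act on these tissues. In a bulk RNA sample, fewer cells of a type and less RNA per cell of that type cannot be told apart, and this holds for every class below.

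Values are log2 intensities with the 75th percentile of the array subtracted, so that 0 is the 75th percentile of that array and a difference of 1 is 2-fold. Of 30367 probes, the scanner software rated 48.3% to 58.9% as well above background on the 6 arrays. Correlations between arrays over 12233 probes ran from 0.980 to 0.987 among D21 rats and from 0.950 to 0.979 among NP rats, and from 0.908 to 0.948 between the groups. NP rat 9 stood apart from NP rats 8 and 10. NP rats 8 and 9 lay on 1 slide, and NP rat 10 shared a second slide with all 3 D21 rats, so slide and group overlap in part and a fit with slide as a block rests on NP rat 10 alone. All 17 tested smooth muscle markers were well above background on all 6 arrays, as were all 11 fibroblast, all 10 epithelial and 13 of 14 blood endothelial markers, while none of 14 decidual and trophoblast markers could be tested.

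A gene was tested when it was well above background on all 3 arrays of 1 group, and it was called when limma gave an unadjusted p under 0.01 with a change of at least 2-fold, the threshold in the study's methods. Of 14048 genes tested, 754 (5.37%) were called higher and 433 (3.08%) lower in D21 than in NP cervix. With a Benjamini-Hochberg adjusted p under 0.05 and no fold limit, 823 genes (5.86%) passed, 552 higher and 271 lower. Every D21 rat was above every NP rat for 20% of all genes and below every NP rat for 24.3%, and the median log2 fold change of all genes was -0.08. The counts in the classes below are read against these shares. Most called genes changed by less than 4-fold: 482 of the genes called higher and 319 of those called lower. Only 20 genes rose and 3 fell by 16-fold or more. The spread was wider among NP rats, with a median SD of 0.29 against 0.17 among D21 rats over genes well above background on all 6 arrays. For 495 of the 754 genes called higher, the NP rat nearest to the D21 rats was NP rat 9. Set against NP rat 10 alone, the only NP rat on the slide of the D21 rats, 416 genes were called higher and 351 lower, and 355 and 130 of these were among the genes called in the full comparison. With slide as a block 349 of the 754 and 182 of the 433 were called. Values of single genes are given in the order NP rats 8, 9 and 10, then D21 rats 5, 6 and 7, and errors are SEs of the limma fit with 3 rats a group.

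**Figure D1:**
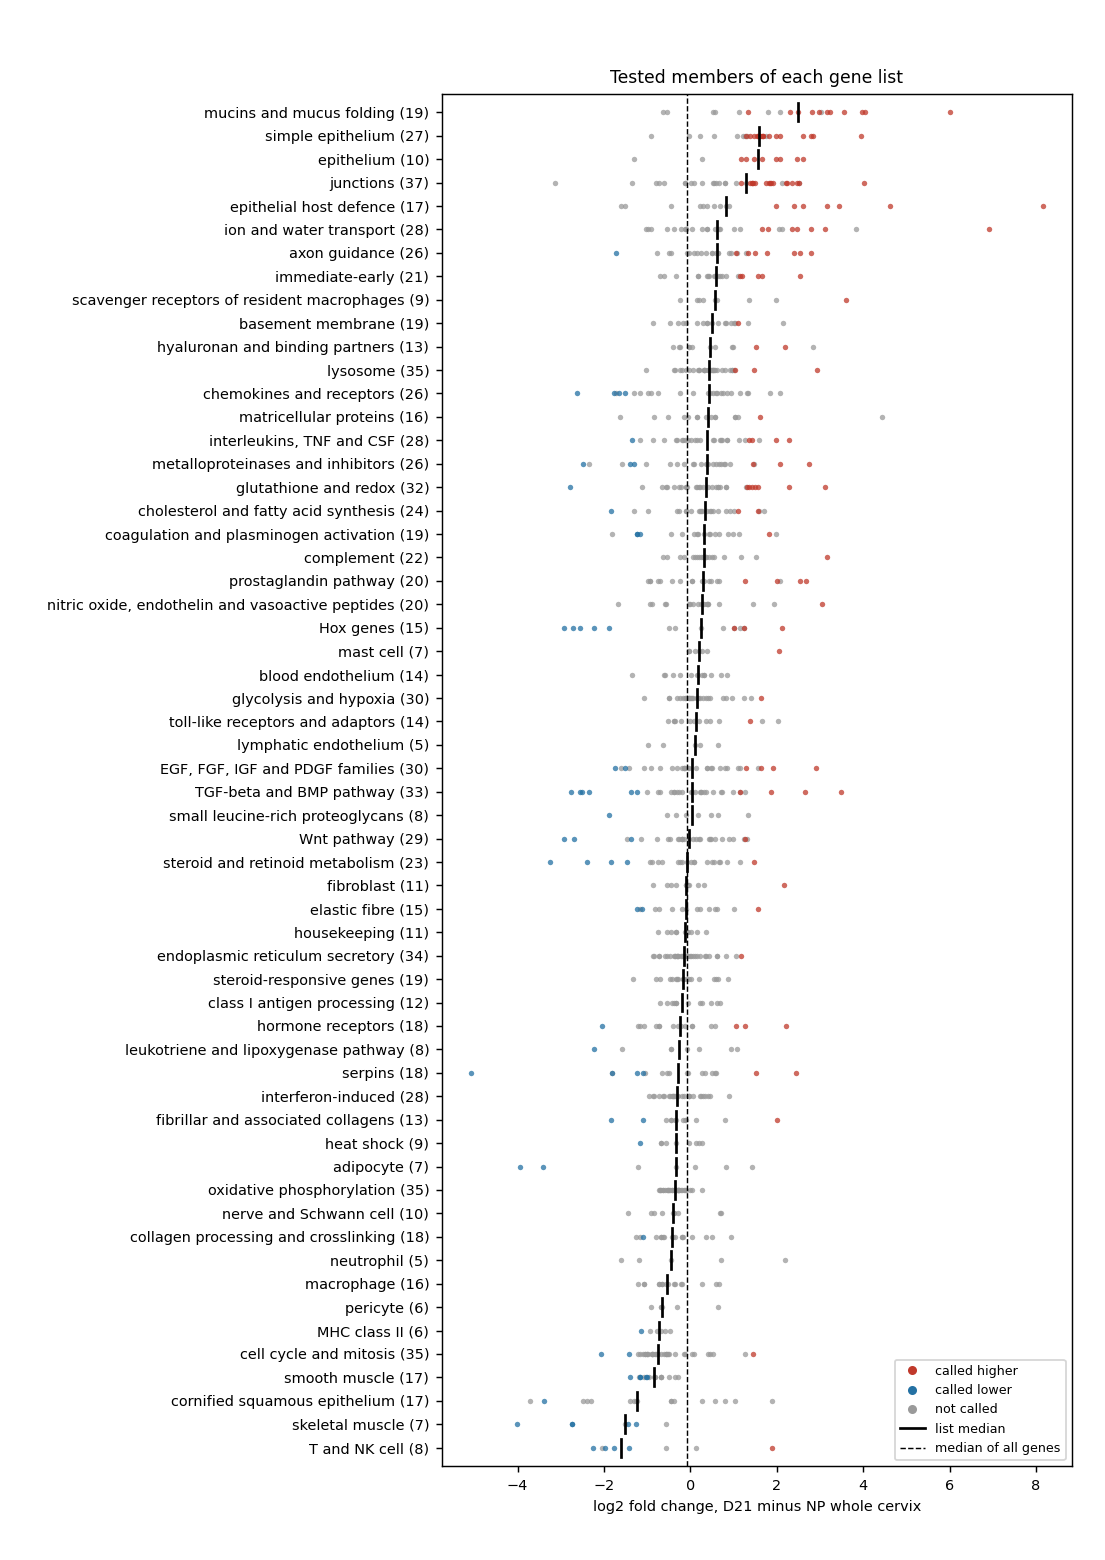
Each point is a tested gene of the list on the left, at its log2 fold change between D21 and NP whole cervix (x axis), with the number of tested genes in brackets; black bars are list medians and the dashed line is the median of all genes, -0.08. Mucus, simple epithelium and junction lists lie to the right, with medians of 2.50, 1.58 and 1.29, and smooth muscle, skeletal muscle and T and NK cell lists to the left, with medians of -0.84, -1.52 and -1.60.

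The highest list medians were epithelial. Genes of mucus, simple epithelium, cell junctions, epithelial defence and ion transport were mostly higher in D21 cervix: 60 genes of these lists were called higher and none was called lower. In all 60 the 3 D21 rats lay above the 3 NP rats. The 60 were picked by their calls on these same arrays, so this adds no support. NP rat 9 was the highest NP rat for 41 of the 60, NP rat 10 for 16 and NP rat 8 for 3.

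Of 19 tested genes for mucins and the enzymes that fold and glycosylate them, 11 rose and none fell, and the median log2 fold change was 2.50. A gene detected in D21 rats alone could enter the list, and 14 of the 19 were well above background on all 6 arrays. The median was 2.19 over genes passing on all 6, 1.89 with normexp background correction and 1.29 with no filter on dim probes. The gel-forming mucin Muc5b, listed on the array as RGD1561983, read 0.36, 3.45 and 2.01 in NP rats and 5.75, 5.56 and 6.44 in D21 rats, a log2 fold change of 3.98 ± 0.73 (SE, adjusted p = 0.0129). Fcgbp, which is secreted with mucus and was the largest change of the list, read -1.27, 1.91 and -0.40 in NP and 5.91, 5.91 and 6.41 in D21 rats. Muc20, a membrane mucin, read -3.23, -0.47 and -2.18 in NP and 2.43, 1.21 and 2.63 in D21 rats and rose by 4.05 ± 0.84 (SE, adjusted p = 0.0215). For these genes the D21 rats were close together and the NP rats were spread over 2 or more log2 units. The groups did not overlap, but the rule that chose genes for naming required this, so it adds no support. All 4 enzymes of the list that place the first sugar on mucin proteins rose: Galnt6 by 3.56, Galnt7 by 2.82, Galnt12 by 2.50 and Galnt3 by 1.34. The list did not take in the rest of this enzyme family. Galnt6 was the most separate, at -1.70, -0.10 and -0.75 in NP and 2.87, 2.18 and 3.09 in D21 rats (adjusted p = 0.0025). Fut2, which adds the terminal fucose of the H antigen, rose by 2.98, and Ern2, a stress sensor of the endoplasmic reticulum in mucous cells, by 3.17. The trefoil factors were not called, with log2 fold changes of 1.80 for Tff1, 0.52 for Tff2 and -0.64 for Tff3. Agr2, a disulfide isomerase that folds mucins, was at 2.08 and was not called.

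Outside the lists, Clca1, a secreted protein that processes mucus and is listed on the array as Clca3, was the brightest of the genes called higher with an adjusted p under 0.05. It read 1.91, 6.32 and 1.84 in NP and 7.38, 7.77 and 8.12 in D21 rats, so that NP rat 9 was far closer to the D21 rats than the other NP rats were. Its log2 fold change was 4.40 ± 1.09 (SE, adjusted p = 0.0397). Without NP rat 8 it was 3.68 and without NP rat 10 it was 3.64, and in neither case was Clca1 called.

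Transcription factors of secretory and simple epithelium were among the genes that rose. Foxa3, a forkhead factor of mucous cells, read -3.84, -0.55 and -2.17 in NP and 1.80, 1.35 and 2.13 in D21 rats, a log2 fold change of 3.95 ± 0.93 (SE, adjusted p = 0.034). Sox9, a factor of glandular and progenitor epithelium, read -3.27, -2.07 and -3.04 in NP and -0.60, 0.13 and 0.58 in D21 rats and rose by 2.83 ± 0.47 (SE, adjusted p = 0.00903). Neither factor overlapped between the groups, as the naming rule required. Spdef, an ETS factor that drives the mucous cell programme, rose by 2.30, but was not called without NP rat 8 (1.77) or D21 rat 7 (2.11). The grainyhead factors Grhl1 and Grhl2 rose by 1.82 and 1.56, Ovol2 by 1.67 and Elf3 by 1.37. Foxa2 (1.75), Klf5 (0.54), Ehf (1.31) and Elf5 (0.23) were not called.

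Of 27 tested genes of simple epithelium, 18 rose and none fell, with a median of 1.58. The keratin pair of simple epithelium moved together. Krt18 read 2.30, 4.10 and 2.86 in NP and 5.74, 5.60 and 5.73 in D21 rats (log2 fold change 2.60, SE 0.45, adjusted p = 0.00973), and Krt8 read 2.71, 3.83 and 3.34 and 5.08, 5.68 and 5.35 (log2 fold change 2.08, SE 0.50, adjusted p = 0.0367). Krt19, Krt7 and Krt20 rose by 1.99, 1.69 and 2.79. Epcam, an epithelial adhesion molecule, rose by 1.66 and Cdh1, E-cadherin, by 1.48. Both epithelial splicing regulators rose, Esrp1 by 1.28 and Esrp2 by 1.58, as did the membrane protease inhibitors Spint1 (1.61) and Spint2 (1.60).

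Junction genes followed, with 17 of 37 tested called higher, none lower and a median of 1.29. The median was 0.81 over genes well above background on all 6 arrays and 0.90 with normexp, where 11 were called higher. Among tight junction proteins, Cldn2, which forms pores for cations and water, was not well above background in any NP rat and was higher in D21 rats by at least 5.44-fold (adjusted p = 0.019). With normexp its log2 fold change was 1.62. Cldn7 read 0.56, 1.48 and 1.26 in NP and 3.76, 3.51 and 3.44 in D21 rats (log2 fold change 2.47, SE 0.42, adjusted p = 0.00973). Cldn1 and Cldn4 rose by 2.23 and 1.16, and the scaffold protein Tjp3 by 1.87. Cldn5, the claudin of blood vessels, was at -1.36 and was not called. Connexins, which form gap junctions, did not move as a block. Gjb1 read -2.97, -1.23 and -2.25 in NP and 0.01, -0.14 and 0.31 in D21 rats (log2 fold change 2.21, SE 0.37, adjusted p = 0.00952), and Gjb5 rose by 1.74. Gja1, connexin 43, which couples smooth muscle cells, was nearly level at 0.02 ± 0.65 (SE, adjusted p = 0.992), and Gjb6 was at -3.14 ± 1.47 (SE, adjusted p = 0.235) and was not called. Of the desmosome proteins, Pkp2 rose by 1.45, while Dsg2 (2.51), Dsp (-0.13) and Jup (0.66) were not called.

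Ion and water transport was mixed. Of 28 tested genes, 7 rose, none fell and the median was 0.61, or 0.28 with no filter on dim probes. Scnn1a, the alpha subunit of the epithelial sodium channel, read -2.42, -2.06 and -2.45 in NP and -0.68, 0.37 and 0.43 in D21 rats, a log2 fold change of 2.35 ± 0.30 (SE, adjusted p = 0.00394). Its partner subunits Scnn1b (-0.55) and Scnn1g (-0.92) were not called and had the other sign. Kcnq1, a potassium channel of secretory epithelium, read -1.78, 0.28 and -1.39 in NP and 1.22, 1.70 and 1.57 in D21 rats (log2 fold change 2.46, SE 0.46, adjusted p = 0.0145). Ano7, of the anoctamin family, was not well above background in any NP rat and was higher in D21 rats by at least 5.35-fold. With normexp its log2 fold change was 1.46. Nherf1, a scaffold for apical transporters, rose by 1.80, and Fxyd3, a regulator of the sodium pump, by 1.66. Among water channels only Aqp9 was called, at 2.80. Aqp5 read -0.54, 3.56 and -0.98 in NP and 3.95, 0.61 and 3.87 in D21 rats and Aqp3 2.77, 1.02 and 3.04 and 0.67, 1.74 and 1.30, with log2 fold changes of 2.13 ± 1.80 (SE, adjusted p = 0.513) and -1.04 ± 0.70 (SE, adjusted p = 0.407), and neither was called. The chloride channel Cftr was at -0.38.

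In epithelial host defence, 7 of 17 tested genes rose and none fell, with a median of 0.82, or 0.23 with no filter on dim probes. There were 4 that rose without NP rat 8, and without NP rat 9 there were 6 that rose and 3 that fell, with a median of 0.40. Scgb3a1, a secretoglobin of the airway and other mucosae, was not well above background in any NP rat and was higher in D21 rats by at least 18.1-fold (adjusted p = 0.0078). With normexp its log2 fold change was 2.55. Sftpd, a collectin that binds microbial sugars, read -0.07, 1.88 and 0.10 in NP and 4.10, 3.58 and 4.51 in D21 rats (log2 fold change 3.43, SE 0.86, adjusted p = 0.0404), and without NP rat 8 it was at 3.08 and not called. Wfdc2, an antiprotease of mucosal secretions, rose by 2.40 and Dmbt1, a scavenger protein of mucus, by 1.98. Slpi, another antiprotease, was at 0.82, and the calprotectin subunits S100a8 and S100a9 were at -1.61 and -0.45, none of them called. The median of this list was -0.15 against NP rat 10 alone, a setting added after the data were seen. Of 9 genes marking ciliated cells, only Foxj1 and Rsph1 could be tested, and both rose: Foxj1, the master factor of motile cilia, by 2.32 and Rsph1, an axonemal protein, by 1.50.

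The cornified squamous genes did not follow. Of 17 tested, 1 fell, none rose, and the median was -1.23. Both rest on NP rat 9: without it 9 fell and the median was -3.21, and against NP rat 10 alone 6 fell, while the median was -0.53 without NP rat 8 and -0.59 without NP rat 10. Krt4, a keratin of noncornified squamous layers, read 1.11, -0.45 and -0.08 in NP and -3.12, -2.30 and -4.14 in D21 rats, a log2 fold change of -3.38 ± 0.78 (SE, adjusted p = 0.0313). Spink5 (-3.70), Sbsn (-2.48), Cnfn (-2.31) and Krt16 (-2.41) had low values too but were not called, as the NP rats spread widely: Sbsn read 3.39, -2.40 and 4.29 in NP and -0.99, 0.50 and -1.66 in D21 rats. Basal keratins were divided, with Krt5 at 0.27, Krt15 at 0.80 and Krt14 at -1.30, and none was called. Over all epithelial lists, 63 genes were called, of which 45 were called whichever rat was left out, and leaving out NP rat 8 ended the most calls (18). Of those named here, Aqp9, Cgn, Dmbt1, Elf3, Ern2, Esrp2, Grhl1, Krt7, Muc1, Ovol2, Pkp2, Tjp3 and Wfdc2 were each not called in 3 or more of the 6 fits that leave out 1 rat. With slide as a block, 37 of the 63 were called.

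**Figure D2:**
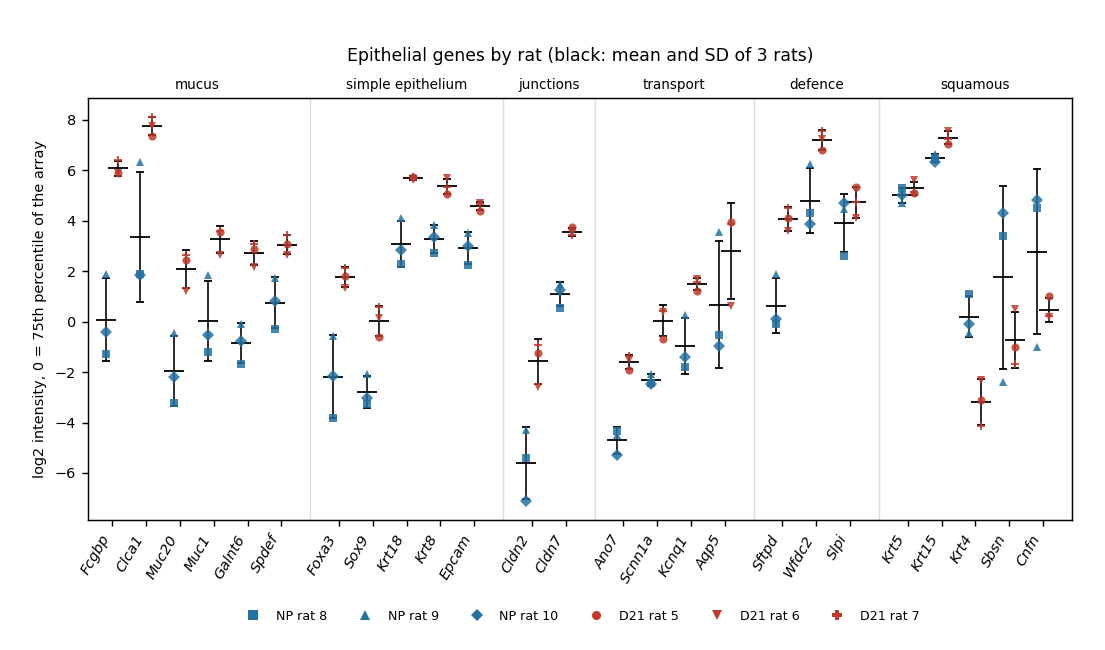
Log2 intensity relative to the 75th percentile of each array (y axis) of epithelial genes in each NP rat (blue) and D21 rat (red), with group mean and SD of 3 rats in black. The D21 rats lie above the NP rats for every gene from Fcgbp to Kcnq1 (adjusted p = 0.06 for Muc1), while Aqp5 and Krt5 overlap.

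Factors of the forkhead (Foxa3), ETS (Spdef, Elf3), grainyhead (Grhl1, Grhl2) and Sox (Sox9) families rose with the epithelial genes. Most upstream sequences of these genes held no match to the core letters of these families, as given below. Those of 3 genes that rose, Fcgbp, Muc20 and Muc1, are shown as examples that hold a match. Each is the 250 bases before the start of the gene, on the plus strand of the GRCr8 build as RefSeq gives it: chr1:92502519-92502768 for Fcgbp, chr11:81492641-81492890 for Muc20 and chr2:176933500-176933749 for Muc1. Capitals mark a match to the core letters of 1 of these families on either strand.
Fcgbp: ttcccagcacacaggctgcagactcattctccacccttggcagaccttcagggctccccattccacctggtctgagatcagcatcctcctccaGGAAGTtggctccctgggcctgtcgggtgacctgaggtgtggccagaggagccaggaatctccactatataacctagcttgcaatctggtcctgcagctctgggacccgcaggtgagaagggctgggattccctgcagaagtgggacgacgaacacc
Muc20: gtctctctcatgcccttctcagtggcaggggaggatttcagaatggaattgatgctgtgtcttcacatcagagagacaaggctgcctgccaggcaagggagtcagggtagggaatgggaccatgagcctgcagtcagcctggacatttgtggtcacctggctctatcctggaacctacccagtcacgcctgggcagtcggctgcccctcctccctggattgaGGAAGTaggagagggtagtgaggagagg
Muc1: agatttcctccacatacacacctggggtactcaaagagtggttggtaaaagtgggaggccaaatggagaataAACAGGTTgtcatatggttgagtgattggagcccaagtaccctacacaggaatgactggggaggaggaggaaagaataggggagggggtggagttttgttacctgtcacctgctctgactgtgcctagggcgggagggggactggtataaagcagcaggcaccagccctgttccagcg
The match in Fcgbp and in Muc20 is to the ETS core GGAAGT, beginning 157 and 28 bases before the start, and that in Muc1 is to the grainyhead core AACNGGTT, 178 bases before it. A promoter was found for 36 of the 60 epithelial genes called higher. The ETS core was in 8 of the 36 (22.2%), against 25.9% of the 8410 tested genes with a promoter, and the grainyhead core was in 2 (5.56%), Cgn and Muc1, against 1.51%. The forkhead core TGTTTAC and the Sox core ACAATGG were in none of the 36, against 2.09% and 1.72%. These are matches of letters within the window and say nothing of binding.

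The collagens and their partners, which make up most of the cervical matrix, differed little in level. Of 13 tested fibrillar and associated collagens, 1 rose, 2 fell and the median was -0.33. Col1a1, the main chain of type I collagen, read 8.04, 7.93 and 7.96 in NP and 8.21, 7.81 and 7.60 in D21 rats, a log2 fold change of -0.10 ± 0.44 (SE, adjusted p = 0.914). A second, dimmer Col1a1 probe was at -0.63. Col3a1, of type III collagen, read 7.86, 7.52 and 7.56 and 7.49, 7.09 and 7.0, a log2 fold change of -0.45 ± 0.41 (SE, adjusted p = 0.544). Both lay far above the 75th percentile on every array, and neither was called. Col14a1, which sits on fibril surfaces, fell by 1.09 on the log2 scale, with values of 1.83, 1.92 and 2.01 in NP and 1.36, 0.63 and 0.49 in D21 rats. It was not called without NP rat 8 (-1.14), 9 (-1.09) or 10 (-1.05), or without D21 rat 6 (-0.99) or 7 (-0.92). Col27a1 was not well above background in any D21 rat and was 3.59-fold lower there (adjusted p = 0.019). With normexp its log2 fold change was -0.37. Col8a1, a short-chain collagen of vessels and remodelling tissue, was the member called higher, at 2.0.

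Of 18 tested genes that modify, fold or crosslink collagen, 1 fell, none rose and the median was -0.42. The gene that fell was Serpinh1, the collagen chaperone Hsp47, at 6.38, 5.46 and 6.10 in NP and 5.14, 4.92 and 4.54 in D21 rats (log2 fold change -1.11, SE 0.33, adjusted p = 0.0735). It was not called without NP rat 8 (-0.91) or 10 (-1.05), or D21 rat 6 (-1.14) or 7 (-0.95). The crosslinking enzyme Lox read 0.94, 0.60 and 1.90 in NP and 0.43, 0.77 and 0.18 in D21 rats, and the lysyl hydroxylase Plod2 and prolyl hydroxylases P3h1 and P4ha1 were at log2 fold changes of -1.26, -1.18 and -0.69, none of them called.

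Among 8 small leucine-rich proteoglycans, which space collagen fibrils, Omd fell by 1.88 and no other was called. Decorin (Dcn) read 5.54, 5.75 and 5.79 in NP and 5.92, 5.93 and 5.72 in D21 rats, within the spread of the rats, and Bgn and Lum were at -0.55 and -0.09. A second, dimmer Bgn probe was at 0.15. Hyaluronan genes had a median of 0.44, with 2 of 13 tested called higher and none lower. Hyal1, which degrades hyaluronan, read -3.43, -2.88 and -2.92 in NP and -1.02, -1.13 and -0.53 in D21 rats (log2 fold change 2.19, SE 0.46, adjusted p = 0.0232), and Has1, a synthase, rose by 1.51. Has2, the other synthase tested, read -2.75, -5.93 and -2.39 in NP and -2.26, -2.82 and -3.10 in D21 rats, a log2 fold change of 0.96 ± 0.90 (SE, adjusted p = 0.56), and Tnfaip6, which crosslinks hyaluronan, was at 2.85 ± 1.01 (SE, adjusted p = 0.122), neither of them called.

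Elastic fibre genes were divided, with 1 of 15 called higher, 2 lower and a median of -0.11. Fbln2 read -0.61, -0.60 and 0.09 in NP and 1.16, 1.45 and 0.97 in D21 rats and rose by 1.57 ± 0.32 (SE, adjusted p = 0.0201). The microfibril-associated Emilin1 (-1.23) and Ltbp1 (-1.12), which tethers latent TGF-beta, fell, while elastin itself (Eln) was at 1.01 and not called. Of 16 matricellular proteins, Postn, which binds collagen and aids its assembly, rose by 1.61 and no other was called. Spp1, osteopontin, spread widely among NP rats, at -2.55, 2.26 and -2.36 in NP and 4.87, 2.50 and 3.28 in D21 rats. NP rat 9 read as high as a D21 rat, the log2 fold change was 4.43 ± 1.49 (SE, adjusted p = 0.104), and Spp1 was not called.

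Matrix-degrading enzymes changed in both directions, with 3 of 26 tested genes called higher, 3 lower and a median of 0.38. Adam8, a membrane protease of leukocytes and epithelium, read -0.04, 0.49 and 0.42 in NP and 1.63, 3.04 and 2.39 in D21 rats (log2 fold change 2.07, SE 0.37, adjusted p = 0.0115). Adam28 rose by 2.75 and Adamts1, which cleaves versican, by 1.45. Mmp16, a membrane metalloproteinase, was not well above background in any D21 rat and was at least 2.58-fold lower there (adjusted p = 0.0069), and Adamts7 (-1.40) and Adamts9 (-1.32) fell. With normexp the log2 fold change of Mmp16 was -0.26. Mmp2, which cleaves gelatin, was at 0.52 ± 0.29 (SE, adjusted p = 0.306), and the inhibitors Timp1, Timp2 and Timp3 were at 0.72, 0.42 and -0.47, none of them called. Mmp9 could not be tested. Of 19 basement membrane genes only Itgb4, of the hemidesmosome of basal epithelium, was called, at 1.10, and the median was 0.49. Over the matrix lists 19 genes were called, 7 of them whichever rat was left out, and leaving out D21 rat 7 ended the most calls (12). Besides Col14a1 and Serpinh1, the genes Col8a1, Omd, Has1, Ltbp1, Postn, Adamts1, Adamts7, Adamts9 and Itgb4 were each not called in 3 or more of these 6 fits. With slide as a block 7 of the 19 were called.

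**Figure D3:**
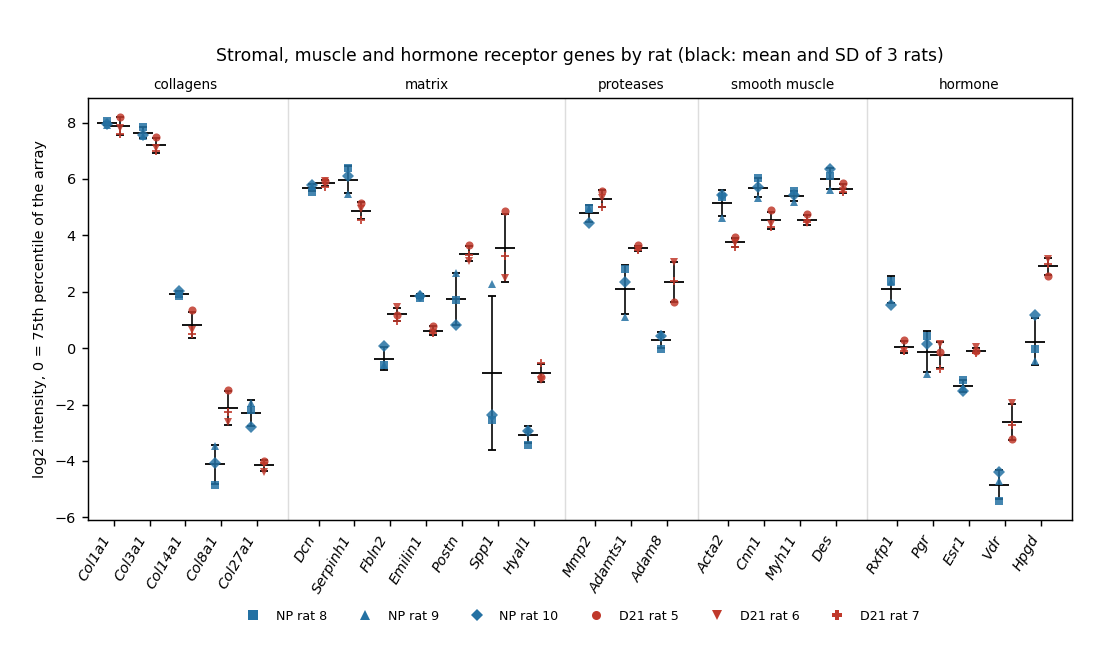
Log2 intensity relative to the 75th percentile of each array (y axis) of collagen, matrix, protease, smooth muscle and hormone genes in each NP rat (blue) and D21 rat (red), with group mean and SD of 3 rats in black. Col1a1 and Dcn overlap between the groups, Acta2 and Cnn1 are lower in every D21 rat, and Spp1 in NP rat 9 lies far above the other NP rats.

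Smooth muscle genes were lower in the D21 cervix. Of 17 tested, all 17 had a negative log2 fold change, 5 were called lower, none higher, and every D21 rat was below every NP rat for 15. The median was -0.84. The calls rest on single rats: none of the 17 was called lower without NP rat 8, with slide as a block or against NP rat 10 alone, and 1 was called without NP rat 10, D21 rat 6 or D21 rat 7. Acta2, smooth muscle actin, read 5.36, 4.61 and 5.44 in NP and 3.93, 3.74 and 3.59 in D21 rats (log2 fold change -1.39, SE 0.43, adjusted p = 0.0812). It was called in the full comparison but not without NP rat 8 (-1.28) or 10 (-1.24) or any 1 D21 rat (5, -1.48; 6, -1.38; 7, -1.31). Cnn1, calponin, read 6.02, 5.34 and 5.71 and 4.88, 4.41 and 4.29 (log2 fold change -1.16, SE 0.28, adjusted p = 0.0367), and without NP rat 8 it was at -1.0 and not called. Smtn (-1.16) and Synpo2 (-1.03), of the contractile cytoskeleton, fell. Myh11, the smooth muscle myosin heavy chain, read 5.56, 5.20 and 5.43 in NP and 4.76, 4.44 and 4.47 in D21 rats and Des, desmin, 6.09, 5.61 and 6.34 and 5.86, 5.58 and 5.54, with log2 fold changes of -0.84 ± 0.27 (SE, adjusted p = 0.0873) and -0.36 ± 0.43 (SE, adjusted p = 0.662). Neither was called.

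Skeletal muscle genes were lower as well, with 5 of 7 tested genes called lower and a median of -1.52, or 3 without NP rat 8 and a median of -2.52 without NP rat 9. Tnni2, a fast troponin, read 0.25, -0.02 and 0.76 in NP and -2.50, -2.20 and -2.55 in D21 rats (log2 fold change -2.75, SE 0.28, adjusted p = 0.00185), and Casq1, the calcium store protein of the sarcoplasmic reticulum, read -0.89, -1.31 and -0.83 and -3.34, -4.49 and -3.40 (log2 fold change -2.73, SE 0.53, adjusted p = 0.0174). Tnnt3 (-1.46) and Pygm (-1.25), muscle glycogen phosphorylase, fell too. Of 16 such markers on the array, 7 could be tested. Tnnt2, a cardiac troponin outside the lists, fell by 1.87, and Pcp4, a calmodulin regulator and the brightest of the named genes outside the lists that fell, read 6.15, 5.02 and 6.30 in NP and 3.56, 4.15 and 3.38 in D21 rats (log2 fold change -2.13, SE 0.55, adjusted p = 0.0456). It was not called without NP rat 8 (-1.96), NP rat 10 (-1.89) or D21 rat 7 (-1.97). Of 10 genes called in the muscle lists, 3 were called whichever rat was left out and 3 with slide as a block. Smtn, Synpo2 and Pygm were each not called in 3 or more of the 6 fits that leave out 1 rat.

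Receptors for the hormones of pregnancy went in both directions, with 3 of 18 tested called higher, 1 lower and a median of -0.25. Rxfp1, the relaxin receptor, read 2.38, 2.36 and 1.53 in NP and 0.28, -0.09 and -0.09 in D21 rats, a log2 fold change of -2.05 ± 0.30 (SE, adjusted p = 0.00554), with every D21 rat below every NP rat. Pgr, the progesterone receptor, read 0.43, -0.93 and 0.14 in NP and -0.15, 0.16 and -0.75 in D21 rats, so that the groups overlapped, and its log2 fold change of -0.13 ± 0.66 (SE, adjusted p = 0.934) was not called. Esr1, the main estrogen receptor, read -1.12, -1.38 and -1.54 in NP and -0.11, 0.02 and -0.17 in D21 rats (log2 fold change 1.26, SE 0.39, adjusted p = 0.0838), and it was not called whichever rat was left out, with values between 1.17 without NP rat 10 and 1.37 without NP rat 8. Vdr, the vitamin D receptor, read -5.41, -4.71 and -4.39 in NP and -3.21, -1.96 and -2.71 in D21 rats (log2 fold change 2.21, SE 0.48, adjusted p = 0.0255), and Rara, a retinoic acid receptor, rose by 1.06. Prlr, the prolactin receptor, was at -1.17 ± 0.44 (SE, adjusted p = 0.145) and was not called, and Oxtr, the oxytocin receptor, could not be tested. None of 19 tested steroid-responsive genes was called, and their median was -0.17.

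In steroid and retinoid metabolism 1 of 23 genes rose and 4 fell. Among those that fell, Aldh1a1, which makes retinoic acid, read -0.15, 0.43 and -0.80 in NP and -1.36, -3.58 and -5.34 in D21 rats (log2 fold change -3.25, SE 0.98, adjusted p = 0.0782). The D21 rats spread over nearly 4 log2 units in Aldh1a1. It was not called without NP rat 8 (-3.24), NP rat 9 (-2.95), D21 rat 6 (-3.18) or D21 rat 7 (-2.30). Stra6 (-1.83), the retinol uptake receptor, and Rbp4 (-1.47), the retinol carrier of plasma, fell as well. Srd5a1, which reduces progesterone and testosterone, rose by 1.47.

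Prostaglandin genes had 4 of 20 called higher, none lower and a median of 0.29. Hpgd, which inactivates prostaglandins, read -0.04, -0.44 and 1.16 in NP and 2.57, 3.14 and 2.98 in D21 rats (log2 fold change 2.67, SE 0.46, adjusted p = 0.0101). Pla2g2a, a secreted phospholipase that frees their precursor, rose by 2.55 and the PGE2 receptor Ptger4 by 2.0. The synthases Ptgs1 (0.43), Ptges (-0.24) and Ptgis (-0.94) were not called, and Ptgs2 could not be tested. Among lipoxygenases Alox12e fell by 2.24, and among 20 vasoactive genes only Adm2, a peptide of the adrenomedullin family, was called, at 3.04. Adm2 read -4.52, -3.84 and -1.40 in NP and -0.09, 0.05 and -0.61 in D21 rats, and with slide as a block its log2 fold change was 1.18 and not called. Over the hormone and mediator lists, 6 of 15 called genes were called whichever rat was left out, and 5 were called with slide as a block. Besides Esr1 and Aldh1a1, the genes Rbp4 and Srd5a1 were not called in 3 or more of the 6 fits without 1 rat.

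Immune genes showed no common direction. Among leukocyte markers, medians were negative for T and NK cells (-1.60), macrophages (-0.54), neutrophils (-0.45, 5 tested) and dendritic cells (-0.37, 3 tested). They were positive for scavenger receptors of resident macrophages (0.56) and mast cells (0.20). They were also positive for eosinophils (0.85) and B and plasma cells (0.34), with 2 tested genes each. None of 16 macrophage markers was called, and their median was -0.54. It was -0.95 without NP rat 9, with 3 markers called lower, -0.27 without NP rat 10 and -1.22 with slide as a block, with 2 called lower. The mean of the list ran from 1.20 to 1.37 in D21 rats and from 1.06 to 2.24 in NP rats. The groups overlapped through NP rat 9, the lowest NP rat, and the other NP rats lay above every D21 rat. Csf1r, the receptor that defines macrophages, read 1.44, 1.07 and 1.80 in NP and 2.01, 1.53 and 1.58 in D21 rats, a log2 fold change of 0.27 ± 0.41 (SE, adjusted p = 0.734), and Lyz2, lysozyme, read 5.54, 3.74 and 5.44 and 3.40, 4.53 and 3.18 (log2 fold change -1.20, SE 0.56, adjusted p = 0.234). Among 9 scavenger receptors of resident macrophages only Cd163, which takes up haemoglobin, was called, at 3.61. Mrc1, the mannose receptor, was at 1.37 and F13a1, the clotting factor subunit of tissue macrophages, at 1.97, and neither was called. Of 6 MHC class II genes all had a negative value and RT1-Da was called, at -1.14, with a median of -0.72.

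Cytotoxic lymphocyte genes were lower in D21 cervix. Of 8 tested T and NK cell genes 4 were called lower and 1 higher, and the median was -1.60, with every D21 rat below every NP rat in 6 genes. With normexp background correction the median was -0.58 and 1 was called lower. Leaving out a rat gave 1 lower call without NP rat 9, 2 without NP rat 8, NP rat 10 or D21 rat 7, and none without D21 rat 6 or against NP rat 10 alone. Gzmm, a granzyme, read -0.34, -0.25 and -0.17 in NP and -2.40, -2.81 and -2.31 in D21 rats, Nkg7, of cytotoxic granules, read -0.92, -0.71 and -0.55 and -2.37, -3.08 and -2.69, and Prf1, perforin, read -1.07, -1.21 and -1.13 and -2.43, -3.01 and -3.30. The NP rats differed by less than 0.5 log2 units in each, and no groups overlapped, as the naming rule required. The log2 fold changes were -2.25 ± 0.63 (SE, adjusted p = 0.0623), -1.99 ± 0.50 (SE, adjusted p = 0.0421) and -1.78 ± 0.54 (SE, adjusted p = 0.0799). Prf1 was not called without any 1 rat except D21 rat 5, its values then running from -1.58 without D21 rat 7 to -2.02 without D21 rat 5. Gzmm was not called without NP rat 8 (-2.29), 9 (-2.25) or 10 (-2.21), or D21 rat 5 (-2.31) or 6 (-2.10), and Nkg7 was not called without D21 rat 6 (-1.80). Zap70, a kinase of the T cell receptor, fell by 1.42, while Cd3g, a chain of that receptor, rose by 1.88 and Cd3d, another, was at -0.57. Only 8 of 19 such markers on the array could be tested.

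Chemokines that recruit these cells were among the 4 of 26 chemokine genes called lower, and none was called higher. Cxcl9 was not well above background in any D21 rat and was at least 3.85-fold lower there, though its log2 fold change was -0.62 with normexp. Its receptor Cxcr3 (-1.52), Ccl5 (-1.65) and Cxcr4 (-1.78) fell. The median of the list was 0.43 all the same, and it was -0.42 without NP rat 9 and -0.58 with slide as a block. Of 28 interleukin, TNF and CSF genes 4 rose and 1 fell. Il18, an epithelial and myeloid cytokine, read -1.91, -1.29 and -1.22 in NP and 0.33, 1.16 and 0.04 in D21 rats (log2 fold change 1.99, SE 0.57, adjusted p = 0.0642). It was not called without NP rat 8 (1.77) or 9 (2.08), or D21 rat 5 (2.08) or 6 (1.66). Il1rl1, the receptor of Il33, rose by 2.29, Il11 by 1.43 and the IL-17 receptor subunit Il17re by 1.35, while Tnfrsf11b, osteoprotegerin, fell by 1.36. Tnf (-0.35), Il1b (-1.16) and Il33 (0.55) were not called. None of 28 interferon-induced genes was called, with a median of -0.30, and neither was any of 12 class I processing genes. Of 22 complement genes Cfb alone was called, at 3.17, and 18 of the 22 were positive. The TLR4 partner Ly96 was the called member of 14 toll-like receptor genes, at 1.37, and Kit, the stem cell factor receptor, that of 7 mast cell genes, at 2.04, while the mast cell proteases Cpa3 (0.39) and Cma1 (0.10) were nearly level. Over the immune lists 6 of 19 called genes were called whichever rat was left out, and leaving out D21 rat 6 ended the most calls (12). RT1-Da was called in none of the 6 fits without 1 rat, and Ccl5, Il17re, Ly96, Tnfrsf11b and Zap70 were each not called in 3 or more. Without D21 rat 6, 1 of the interleukin, TNF and CSF genes was called higher.

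Clotting genes and protease inhibitors went both ways. F3, tissue factor, which starts clotting, read 2.44, 3.24 and 2.57 in NP and 4.30, 4.54 and 4.86 in D21 rats (log2 fold change 1.81, SE 0.30, adjusted p = 0.0095). Its inhibitor Tfpi (-1.24), the anticoagulant Pros1 (-1.17), protein S, and Serpine2 (-1.25), an inhibitor of thrombin, fell. These were the 4 called of 19 coagulation genes, but none of the list was called lower without NP rat 9, with normexp or against NP rat 10 alone. Pros1 was not called whichever rat was left out, and Tfpi was not called without D21 rat 7 either. The the plasminogen activators Plat and Plau were at 0.14 and 1.12 and were not called. Among 18 serpins, Serpina1, alpha-1 antitrypsin, read -1.05, 0.95 and -0.83 in NP and 1.87, 1.89 and 2.62 in D21 rats (log2 fold change 2.44, SE 0.52, adjusted p = 0.0232) and Serpinb8 rose by 1.52. Serpinb9, which inhibits granzyme B, read 2.48, 1.88 and 2.27 in NP and 0.92, 0.02 and 0.24 in D21 rats (log2 fold change -1.81, SE 0.34, adjusted p = 0.0149). F3, Serpina1, Serpinb8 and Serpinb9 were called whichever rat was left out.

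Hox genes, which keep positional identity along the reproductive tract, went in both directions. Of 15 tested, 3 rose and 5 fell. The 5 lower calls stood whichever rat was left out, and with slide as a block 2 of the 15 were called lower. With normexp 3 were called lower, while Hoxa9 (-0.26) and Hoxd10 (-1.43) were not called. The higher calls were fewer without NP rat 10 or D21 rat 7 (none) and with normexp (none), and more without NP rat 9 (6). The 5 that fell are Hoxa9 (listed as Hoxa9l), Hoxa10, Hoxa11 (a probe listed on the array as Hoxa10 and named here by its RefSeq accession), Hoxd9 and Hoxd10, genes of the posterior HoxA and HoxD clusters. Hoxd9 read 1.32, 0.58 and 0.90 in NP and -1.50, -1.84 and -2.0 in D21 rats (log2 fold change -2.71, SE 0.27, adjusted p = 0.00185), Hoxd10 -0.14, -0.88 and -0.77 and -3.46, -3.05 and -4.08 (log2 fold change -2.93, SE 0.46, adjusted p = 0.00711), and Hoxa11, needed for uterine development, 2.31, 2.87 and 1.69 and -0.14, -0.30 and -0.36 (log2 fold change -2.56, SE 0.50, adjusted p = 0.0167). Hoxa10 fell by 1.88. No rats overlapped in these genes, which the naming rule required of Hoxd9, Hoxd10 and Hoxa11. Hoxa13, the most posterior of the cluster and a gene of the lower tract, was at -0.49 and was not called. Hoxb6 rose by 1.24, and Hoxc6 and Hoxa2, neither of them well above background in any NP rat, were higher in D21 rats by at least 1.36-fold and 1.13-fold.

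In the Wnt pathway 1 of 29 genes rose and 3 fell. Sfrp2, a secreted Wnt antagonist of stroma, read -0.19, 1.09 and -0.51 in NP and -2.75, -2.50 and -2.46 in D21 rats (log2 fold change -2.70, SE 0.36, adjusted p = 0.00418). Wnt2 was not well above background in any D21 rat and was at least 2.08-fold lower there, though its log2 fold change was -0.17 with normexp. Wnt10a fell by 1.36, and Wnt4, a ligand of the reproductive tract, rose by 1.25. The target gene Axin2 was at -0.20.

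In the TGF-beta and BMP pathway 4 of 33 genes rose and 6 fell, and extracellular antagonists of BMPs went both ways. Nog, noggin, read -5.13, -3.41 and -3.64 in NP and -1.07, -1.92 and -1.22 in D21 rats (log2 fold change 2.65, SE 0.59, adjusted p = 0.0267). The chordin-like Chrdl1 (-2.52) and Chrdl2 (-2.56) fell. The groups did not overlap in any of these, as the naming rule required. Chrdl1 was called in none of the 6 fits without 1 rat, and Chrdl2 was not called without NP rat 8, NP rat 10, D21 rat 5 or D21 rat 7. Among ligands, Gdf15, a stress-induced cytokine that is high in pregnancy, read -4.74, -2.64 and -5.94 in NP and -0.29, -1.56 and -1.03 in D21 rats (log2 fold change 3.48, SE 0.79, adjusted p = 0.0297), and Bmp4 rose by 1.87. Gdf10 fell by 1.38, and Gdf5 was not well above background in any D21 rat and was at least 4.14-fold lower there. With normexp the log2 fold change of Gdf5 was -0.62. Tgfb1 (1.14) and Tgfb3 (0.25) were not called.

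Growth factors of the EGF, FGF, IGF and PDGF families had 4 of 30 genes called higher and 2 lower. Igf2, a fetal growth factor, read 0.27, 0.22 and 0.30 in NP and -1.31, -1.07 and -1.40 in D21 rats (log2 fold change -1.52, SE 0.38, adjusted p = 0.0396), with NP rats within 0.2 log2 units of each other. The IGF-binding proteins Igfbp2 and Igfbp5 rose by 1.92 and 1.30. Btc, a ligand of the EGF receptor, and Erbb3, a receptor of the same family, rose by 2.91 and 1.64, and Pdgfd fell by 1.74. Of 26 axon guidance genes, which also act in epithelia and vessels, 7 rose and 1 fell, with a median of 0.61. Unc5b, a netrin receptor, read -3.91, -4.16 and -4.57 in NP and -1.60, -1.58 and -1.05 in D21 rats (log2 fold change 2.80, SE 0.57, adjusted p = 0.02), and Epha2, an ephrin receptor of epithelium, -0.27, 0.03 and 0.24 and 1.80, 1.84 and 1.68 (log2 fold change 1.77, SE 0.28, adjusted p = 0.00711). The semaphorins Sema3c, Sema3e, Sema3f, Sema4a and Sema4g rose by 1.05 to 2.54, and Sema5a fell by 1.72. Over the Hox and signalling lists 36 genes were called, 18 of them whichever rat was left out, and leaving out D21 rat 7 ended the most calls (15). Hoxa2, Hoxb6, Hoxc6, Wnt4, Wnt10a, Bmp4, Btc, Igfbp5, Pdgfd, Sema4g and Sema5a were each not called in 3 or more of the 6 fits without 1 rat. With slide as a block 20 of the 36 were called.

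**Figure D4:**
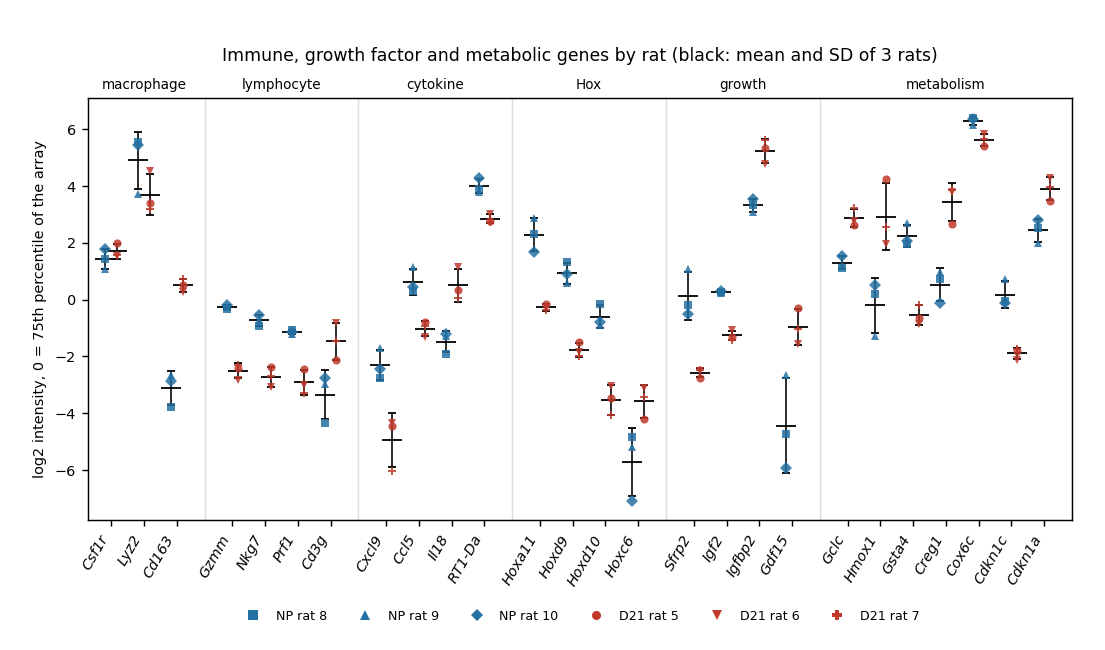
Log2 intensity relative to the 75th percentile of each array (y axis) of immune, Hox, growth factor and metabolic genes in each NP rat (blue) and D21 rat (red), with group mean and SD of 3 rats in black. Csf1r and Lyz2 overlap, while the lymphocyte genes Gzmm, Nkg7 and Prf1 and the genes Hoxa11, Hoxd9, Sfrp2 and Gsta4 are lower in every D21 rat.

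Metabolic and stress pathways changed in a few enzymes each. Of 32 glutathione and redox genes 7 rose and 1 fell. Gclc, which catalyses the rate-limiting step of glutathione synthesis, read 1.13, 1.23 and 1.55 in NP and 2.63, 2.77 and 3.22 in D21 rats (log2 fold change 1.57, SE 0.30, adjusted p = 0.0157). Hmox1, which breaks down haem, read 0.20, -1.29 and 0.53 in NP and 4.24, 1.96 and 2.58 in D21 rats (log2 fold change 3.11, SE 0.62, adjusted p = 0.0194), and Nqo1 and Srxn1, 2 further targets of the factor Nrf2, rose by 1.44 and 1.36. The glutathione transferases Gstm1 and Gstm2 rose by 2.28 and 1.32. These 2 have close relatives whose transcripts may reach the same probe. Gsta4, a transferase that clears lipid aldehydes, went the other way, at 1.95, 2.70 and 2.07 in NP and -0.63, -0.84 and -0.17 in D21 rats (log2 fold change -2.79, SE 0.39, adjusted p = 0.00446). Catalase (Cat, 0.83) and Sod1 (0.28) were not called.

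Of 35 lysosomal genes 3 rose, none fell, 28 were positive and the median was 0.43. Creg1, a glycoprotein of the endolysosome, read 0.74, 0.98 and -0.12 in NP and 2.68, 3.81 and 3.87 in D21 rats (log2 fold change 2.92, SE 0.39, adjusted p = 0.00418), and the proton pump subunit Atp6v1b2 and the galactosidase Glb1 rose by 1.47 and 1.03. Ctsk, the collagen-degrading cathepsin, was at -1.03 and was not called. Oxidative phosphorylation was the counterpart in direction: none of 35 genes was called, but 33 were negative, every D21 rat was below every NP rat in 22 of the 35, against 24.3% of all genes, and the median was -0.35. Cox6c, a subunit of cytochrome oxidase, read 6.42, 6.15 and 6.36 in NP and 5.40, 5.83 and 5.65 in D21 rats, a log2 fold change of -0.68 ± 0.24 (SE, adjusted p = 0.121). Of 34 genes of the secretory endoplasmic reticulum only Atf6, a sensor of unfolded protein, was called, at 1.18. Hspa5, the main chaperone there, was at -0.35, and Xbp1, a factor of secretory cells, at -0.07. Among 30 glycolysis and hypoxia genes Epas1, a hypoxia-inducible factor, rose by 1.65, and Vegfa, at 0.06 ± 0.25 (SE, adjusted p = 0.917), was not called. Dimmer Vegfa probes were at 0.33, 1.25 and 0.33, that at 1.25 well above background in only 1 NP rat. Cholesterol synthesis had 2 of 24 called higher and 1 lower. Those that rose were Idi1 (1.56) and Fdft1 (1.10).

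Proliferation genes mostly had negative values. Of 35 cell cycle genes, 28 were negative, 2 fell, 1 rose and the median was -0.76. Both depend on NP rat 9: without it 12 fell and the median was -1.26. The median was -0.46 without NP rat 8, -0.36 with normexp, where none fell, and -1.09 with slide as a block. Top2a and Ccna2, of dividing cells, were at -1.22 and -1.01 and were not called. Tyms, which makes thymidylate, fell by 1.42. The inhibitors of cyclin-dependent kinases were opposed: Cdkn1a, p21, read 2.53, 2.01 and 2.81 in NP and 3.48, 4.27 and 3.97 in D21 rats (log2 fold change 1.46, SE 0.31, adjusted p = 0.0244), and Cdkn1c, p57, read -0.05, 0.72 and -0.12 and -1.79, -2.12 and -1.75 (log2 fold change -2.07, SE 0.56, adjusted p = 0.0537). Cdkn1c was not called without NP rat 9 (-1.80) or D21 rat 6 (-1.95). Immediate-early genes, which respond within minutes to growth signals and to handling of tissue, had 5 of 21 called higher, none lower and a median of 0.59. Fos read -0.81, -0.85 and 0.05 in NP and 1.30, 2.30 and 2.38 in D21 rats (log2 fold change 2.53, SE 0.38, adjusted p = 0.0062), Dusp1 and Btg2 rose by 1.66 and 1.56, and Egr1 was at -0.61. Their part in the other results was not tested. The mitochondrial chaperonin Hspe1 was the only one of 9 heat shock genes called, at -1.16, and none of 11 housekeeping genes was called (Gapdh 0.02, Actb -0.04). Of 25 genes called in these lists, 15 were called whichever rat was left out, and 11 were called with slide as a block. Atf6, Fdft1, Glb1 and Idi1 were each not called in 3 or more of the 6 fits without 1 rat.

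Other cell types of the cervix gave few calls. None of 14 blood endothelial markers was called, and their median of 0.17 was -0.26 with slide as a block and -0.087 without NP rat 8: Pecam1 was at 0.26, Kdr at 0.85 and Cdh5 at 0.71. None of 10 nerve and Schwann cell markers, 5 lymphatic markers or 6 pericyte markers was called. Of 11 fibroblast markers only Pi16, of adventitial fibroblasts, was called, at 2.18, while Pdgfra (-0.05), Lum (-0.09) and Dpt (-0.03) were nearly level. Of 7 adipocyte genes, Retn and Cidec fell, and Cidec, of the lipid droplet, read -2.17, -0.78 and 0.06 in NP and -6.33, -3.34 and -3.44 in D21 rats (log2 fold change -3.41, SE 0.93, adjusted p = 0.0558), while Adipoq was at 1.42. Cidec was not called without NP rat 9 (-3.32), NP rat 10 (-2.90) or D21 rat 5 (-2.43). All 4 tested red cell genes were above the NP rats in every D21 rat, with a median of 1.41, and none was called. Hbb, a globin, read 3.86, 3.39 and 3.14 in NP and 4.29, 5.11 and 5.09 in D21 rats. The rats had been perfused, and the part of residual blood in other results was not tested.

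Several bright genes outside the lists were called. Msln, mesothelin, an adhesion protein of mesothelium and some epithelia, read 0.71, 2.60 and 1.72 in NP and 4.49, 4.52 and 4.82 in D21 rats (log2 fold change 2.93, SE 0.60, adjusted p = 0.0207). Ezr, which links apical membrane to actin, read 2.82, 3.94 and 3.25 in NP and 4.92, 4.80 and 5.21 in D21 rats (log2 fold change 1.64, SE 0.31, adjusted p = 0.014). Pinlyp, Med24, Gadd45a, Tspan1, Crip2, Sms, Smim14 and S100a16 rose by 1.12 to 2.34, with Med24, a Mediator subunit, at 2.03 and Gadd45a, a growth arrest gene, at 1.74. Among those that fell, Lsp1, an actin-binding protein of leukocytes, read 4.58, 3.79 and 4.35 in NP and 2.63, 2.59 and 2.12 in D21 rats (log2 fold change -1.79, SE 0.37, adjusted p = 0.0211). The endoplasmic reticulum proteins Gpx8 (-1.84), a peroxidase, and Fkbp7 (-1.23) and Ppic (-1.13), both prolyl isomerases, fell. Bok, of the Bcl-2 family, Selenow, a selenoprotein, Ctxn1, Eva1b, Grik5 and Slc24a3, a sodium-calcium exchanger, fell as well, with log2 fold changes from -1.03 for Grik5 to -2.22 for Ctxn1.

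The same contrast could be set against other rats, since the Mφ-depleted cervix came from 3 other D21 and 3 other NP rats and the comparisons share no sample. The depleted cells had passed through a further separation, so the sets differ in handling as well as in Mφs. They differ in scan day too. All whole arrays were scanned on the same day. Depleted NP rats 5 and 6 and D21 rats 1 and 2 were scanned on other days, on slides with no whole array. Of 13401 genes tested there, 731 were called higher and 277 lower. Among the 1009 genes called in whole cervix and tested in depleted cells, 684 (67.8%) had the same sign in both, against 52.7% of all genes, and 141 were called higher and 29 lower in both. Across 12893 genes tested in both, the log2 fold changes correlated with r = 0.22, a description across genes, which are not independent replicates.

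Classes differed in how far they matched. The mucus list had a median of 2.50 in whole and 1.44 in depleted cervix, the cell cycle list -0.76 and -1.02, the MHC class II list -0.72 and -1.34 and the cornified list -1.23 and -0.84. Simple epithelium was at 1.58 in whole and 0.38 in depleted cervix, and junctions at 1.29 and 0.22. Epithelial host defence was at 0.82 and 0.11, and ion and water transport at 0.61 and 0.19. Ciliated cell markers, with 2 tested, were at 1.91 and 1.79. The T and NK cell list was at -1.60 and 0.01. Stromal lists parted: fibrillar collagens were at -0.33 in whole and 2.29 in depleted cervix, small leucine-rich proteoglycans at 0.04 and 2.19, fibroblast markers at -0.09 and 2.68, smooth muscle at -0.84 and 0.45 and skeletal muscle at -1.52 and 0.80. The difference between the contrasts was tested gene by gene as an interaction over all 12 arrays. Of 14556 genes, 348 (2.39%) passed an adjusted p under 0.05 in limma, and among the 1187 genes called in whole cervix 155 did, or 669 at an unadjusted p under 0.05. The 1187 were picked by their change on the whole arrays, which enter the interaction. A larger share among them is in part built in and adds no support. Rxfp1 had the smallest adjusted p of the genes named here: its log2 fold change was -2.05 in whole and 2.56 in depleted cervix, a difference of -4.61 ± 0.43 (SE, adjusted p = 0.00173). Col1a1, at -0.10 in whole and 3.76 in depleted cervix, differed by -3.86 ± 0.62 (adjusted p = 0.0114), and Dcn, at 0.17 and 2.68, by -2.51 ± 0.36 (adjusted p = 0.00705). Hoxa11, which fell in whole cervix, was at 2.01 in depleted cervix (adjusted p = 0.00978 for the difference). Vdr, Erbb3 and Adam8 were the named genes with a significant difference in the other direction. Among the same 1187 genes the count was 23 with slide as a block, 13 against NP rat 10 alone and 424 without D21 rat 4 of the depleted group.

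**Figure D5:**
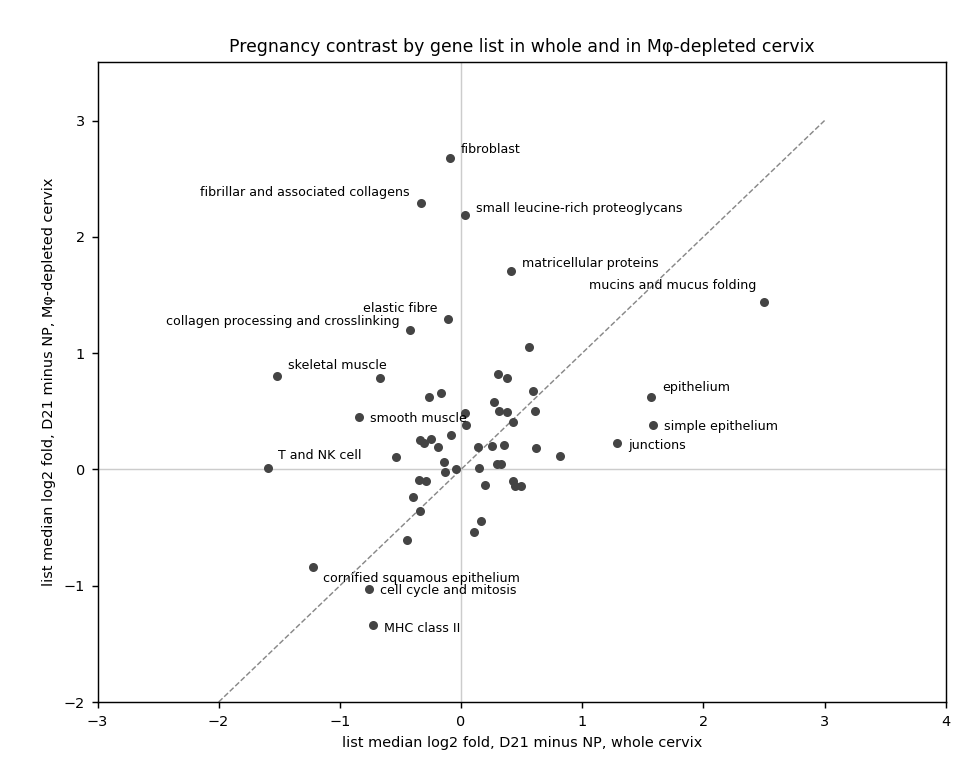
Each point is a gene list with at least 5 tested genes, at its median log2 fold change between D21 and NP in whole cervix (x axis) and in Mφ-depleted cervix of other rats (y axis); the dashed line marks equal values. Mucus genes are high on both axes (2.50 and 1.44), while collagens (-0.33 and 2.29) and small leucine-rich proteoglycans (0.04 and 2.19) are high only in depleted cervix. Simple epithelium (1.58 and 0.38) and junctions (1.29 and 0.22) are high mainly in whole cervix.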

How the data were processed

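Gene expression was measured on 1-colour Agilent rat arrays, 1 rat to an array, in 4 groups of 3 rats. All 12 samples were grouped by their labels, and nothing but the rat number separates replicates, which are different animals. The intensity of every spot was deposited by the authors as the Feature Extraction software wrote it, background-subtracted and with no scaling between arrays. The deposited scanner intensities were the main input. The authors also deposited ratios of each probe to the 75th percentile of its array, which served as an alternative. The array annotation names the rn4 build.

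Control and outlier spots were left out, spots of a probe were averaged, and log2 intensities were set relative to the 75th percentile of their array. RefSeq accessions named 17679 of 30367 probes (58.2%), and the array's own name was kept for the rest. The brightest probe stood for a gene with several. Among 22 called named genes with further probes, none of 20 such probes above background had the opposite sign. Of the named genes not called, Bgn had a second probe of opposite sign, at 0.15 against -0.55. All 12 arrays entered a limma 3.58.1 fit (R 4.3.3) with a mean for each group and no covariates, tested on simulated data. The number of arrays limits the precision, and 3 rats against 3 allow no exact permutation p under 0.1.

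The comparison and its gene lists were chosen with earlier results of these data known, so the lists have no test of their own. They hold 41 classes and 23 cell types, 1410 of 1490 symbols being on the array. Genes were named by rule: up to 3 called members of a list in each direction with the largest change and no overlap, or its 2 brightest where under 2 were called, 25 fixed genes, and the 12 brightest called genes in each direction outside the lists. Other list members named beside them were chosen after their values were seen. Some genes that the rule names are not reported here, though counts include them. A level not well above background in a group gives a lower bound on the fold under the main processing. Each dim array counts at the weakest signal that passed this rating, or at its own value where that is higher. With normexp some changes were smaller than the bound, and these are given beside it. The alternatives were Welch's test of the study's methods ("the methods' t-test"), adjusted thresholds, the 6 whole arrays alone, normexp background correction (offset 50), quantile scaling, other filters and probe rules, array weights, blocks for slide or for scan day, the deposited ratios and leaving out each rat. Python 3.11.15 with pandas 2.3.3 and matplotlib 3.10.9 was used for tables and plots.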

Additional observations from a re-analysis of the deposited data

Results flagged for a closer look

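For 37 of the genes named, the change with pregnancy differed between whole cervix and the Mφ-depleted cervix of other rats, by limma's interaction at an adjusted p under 0.05. Over all genes the share was 348 of 14556 (2.39%). Many genes were named for their change on the whole arrays, which enter this difference, so the count of 37 adds no support. Among the 1187 genes called in whole cervix, the count of 155 was 23 with slide as a block and 21 with normexp. Values here are the log2 fold change (D21 minus NP) in whole cervix minus that in depleted cervix, with adjusted p between 0.0017 and 0.0498. Among collagens and their partners the difference was -3.86 for Col1a1, -3.08 for Col3a1, -2.38 for Col14a1, -3.17 for Col27a1, -2.40 for Serpinh1, -3.47 for Pcolce and -3.11 for Lox. Among other matrix proteins it was -4.86 for Omd, -2.51 for Dcn, -1.93 for Bgn, -2.75 for Sparc and -2.49 for Emilin1. The values of Col1a1 and Bgn are those of the brightest probe, and a second probe of each read otherwise in whole cervix. Proteases gave -2.75 for Mmp2, -3.11 for Mmp16, -2.70 for Adamts7 and -2.94 for Adamts9, and with the other sign 2.42 for Adam8.

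Muscle genes differed by -2.79 for Acta2, -2.69 for Cnn1, -3.27 for Des, -1.99 for Tnni2, -3.53 for Casq1 and -5.33 for Tnnc2. Receptors and growth factors differed by -4.61 for Rxfp1, -2.92 for Pdgfrb, -4.66 for Igf1, -3.81 for Sfrp2 and -3.67 for Ramp1, and with the other sign by 2.98 for Vdr and 2.50 for Erbb3. The remaining genes were Hoxa11 at -4.57, Hoxd9 at -2.58, Gpx8 at -3.49, Fkbp7 at -2.03, Alox12e at -3.66, Ctxn1 at -3.16 and Slc24a3 at -1.74. Mmp16, Col27a1, Casq1 and Omd were too dim to be tested in depleted cervix alone. The depleted cells had been handled longer and the slides were shared in part with the groups, and the part of either was not tested.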

How the results depend on the processing

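No paired analysis was possible because no rat number is shared by the D21 and NP groups of whole cervix, or by those of depleted cervix. Rats 5 to 7 of whole D21 and of depleted NP cervix share only numbers and are different animals. Against 754 genes called higher and 433 lower, the methods' t-test gave 287 and 203, or 781 and 573 at an unadjusted p under 0.05 with 2-fold, and 0 and 0 after Benjamini-Hochberg adjustment, where limma gave 523 and 243. Normexp gave 422 and 132, array weights 1184 and 894, slide as a block 431 and 276, NP rat 10 alone (within slide 2, chosen after the data were seen) 416 and 351, and the 6 whole arrays alone 907 and 663. Leaving out 1 rat gave 479 to 831 higher, the lowest without NP rat 8, and 241 to 593 lower, the lowest without D21 rat 7. Of the 1187 called genes, 155 differed between whole and depleted cervix. With scan day as a block 152 did, 111 of them among the 155. The count was 21 with normexp and 39 with no filter on dim probes, all among the 155, 23 (17 of them shared) with slide as a block, 13 (11 shared) against NP rat 10 alone and 602, with all 155, with array weights. Leaving out 1 of the 12 rats gave 42 to 424: 63 without NP rat 8, 75 without NP rat 10, 73, 57 and 42 without D21 rats 5, 6 and 7, and among depleted rats 65 without NP rat 5, 80, 66 and 424 without D21 rats 1, 2 and 4. The cause of these shifts was not tested, apart from the fewer samples in a fit that leaves out a rat or rests on NP rat 10.

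Of 1102 medians recomputed for 58 lists, 70 changed sign, in 24 lists. In 16 of the 70 both the median and its shift exceeded the SD between rats, and these follow. The chemokine median was -0.27 without a filter on dim probes, -0.020 with array weights, -0.58 with slide as a block, -0.90 against NP rat 10 alone and from -0.42 without NP rat 9 to 0.45 without D21 rat 5. The toll-like receptor median was -0.081 without a filter, -0.057 with slide as a block and -0.23 against NP rat 10 alone. Hyaluronan was at -0.14 without a filter and -0.0025 with a filter on all 6 arrays. The nitric oxide, endothelin and vasoactive list was at -0.23 without a filter and -0.060 against NP rat 10 alone, epithelial host defence at -0.15 and interleukins at -0.069 against NP rat 10 alone, prostaglandins between -0.073 without NP rat 9 and 0.42 without D21 rat 6, and hormone receptors between -0.36 without NP rat 8 and 0.090 without D21 rat 7. Of 220 list or named genes called, none changed sign under the alternatives run. With slide as a block 108 were not called, with normexp 93, with the methods' t-test 139, and with slide as a random block 15. Some falls were far smaller with normexp. Log2 fold changes were then -0.25 for Pros1, -0.26 for Tnnt3, -0.28 for Zap70, -0.44 for Cxcr3 and -0.34 for Wnt10a and Pdgfd. Probes near background are a further limit: no NP array rated 52 of the genes called higher above background, and no D21 array 35 of those called lower.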
